A study of Mus musculus with 16 samples.

Results

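The genes described here drive and time the cell division cycle: cyclins, cyclin-dependent kinases (CDKs) and their inhibitors, the proteins that license and start DNA replication, the E2F transcription factors, and named cell division cycle (Cdc) genes. They were chosen by symbol alone, as every probe annotated to a cyclin of the families A to L, a numbered Cdk, a Cdkn or Cdc gene other than the Cdc42 family, a member of the Mcm, Gins, Orc, Rfc or E2f families, or to Pcna, Mki67 or Top2a. The choice gave 95 probes for 66 genes, out of 20794 probes, of which 12771 carried a gene symbol. No probe in the annotation used here carries the symbol Mki67. The 95 probes fell into 21 for replication proteins (17 genes), 50 for cyclins, kinases and inhibitors (32 genes) and 24 for the others (17 genes).

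The study set RNA of EMP3 mutant mice against a wild-type RNA pool made from the matching organ on two-colour arrays, an assay in which both RNAs carry different dyes and compete for 1 spot. EMP3 belongs to the PMP22 family of small membrane proteins. Spleen and thymus came from 4 male mutants aged 17 weeks, and the pool from 4 male wild types of that age. Every mutant was run on 2 arrays per tissue with the dyes Cy5 and Cy3 exchanged, which makes 8 arrays a tissue. The labels do not say what the mutation is or in which cells it acts, and the pool is 1 control sample, so the spread among wild types was not measured.

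In dividing cells, cyclins switch on CDKs in a fixed order, and inhibitors such as p21 and p27 hold them back. Replication is prepared when the origin recognition complex and CDC6 load the ring of MCM2 to MCM7 onto DNA, and starts when CDC45 and GINS join that ring to form the active helicase. The sliding clamp PCNA, placed by replication factor C, then holds the polymerases on the template, and many of these genes are known targets of E2F factors. Spleen and thymus both hold dividing blood cells, and the thymus is where T cell precursors proliferate.

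The promoters of replication genes are known for E2F sites, and the stretch upstream of 4 of them is shown. The 4 were taken from genes with E2F letters there, so the matches below do not speak for replication genes without them. Rfc1, Cdc45 and Mcm10, each with 1 probe called higher in spleen, had no match or no sequence to search and are not shown. Shown are Mcm5 and Cdc6, which each had 1 probe called lower in spleen, and Gins3, whose mean was the highest of the members. The last is Mcm6, whose probe differed in sign from that of Mcm5. Each stretch is the 250 bases before the RefSeq start site in build GRCm38.p6, read 5′ to 3′ on the gene's strand. They lie at chr8:75109259-75109508 (plus strand) for Mcm5, chr11:98907901-98908150 (plus strand) for Cdc6, chr8:95633309-95633558 (plus strand) for Gins3 and chr1:128359706-128359955 (minus strand) for Mcm6. Capitals mark the letters TTTCCCGC, TTTCGCGC, TTTGCCGC or TTTGGCGC, or their reverse complements, which are forms of the E2F site; neighbouring matches can overlap and then form 1 longer run of capitals.
Mcm5: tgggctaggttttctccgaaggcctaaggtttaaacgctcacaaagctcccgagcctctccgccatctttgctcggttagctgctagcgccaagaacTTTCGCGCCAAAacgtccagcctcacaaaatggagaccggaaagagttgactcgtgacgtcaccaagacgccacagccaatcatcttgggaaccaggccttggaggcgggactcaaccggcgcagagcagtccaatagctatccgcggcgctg
Cdc6: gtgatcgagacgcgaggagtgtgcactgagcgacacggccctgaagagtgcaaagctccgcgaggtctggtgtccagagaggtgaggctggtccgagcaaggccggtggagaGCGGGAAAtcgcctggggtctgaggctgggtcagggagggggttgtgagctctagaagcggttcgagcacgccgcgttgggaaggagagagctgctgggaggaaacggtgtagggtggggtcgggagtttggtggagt
Gins3: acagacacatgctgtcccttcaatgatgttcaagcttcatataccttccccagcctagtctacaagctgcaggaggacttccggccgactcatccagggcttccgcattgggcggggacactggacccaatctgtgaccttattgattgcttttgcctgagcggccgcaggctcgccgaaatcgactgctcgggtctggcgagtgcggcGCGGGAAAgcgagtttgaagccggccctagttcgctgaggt
Mcm6: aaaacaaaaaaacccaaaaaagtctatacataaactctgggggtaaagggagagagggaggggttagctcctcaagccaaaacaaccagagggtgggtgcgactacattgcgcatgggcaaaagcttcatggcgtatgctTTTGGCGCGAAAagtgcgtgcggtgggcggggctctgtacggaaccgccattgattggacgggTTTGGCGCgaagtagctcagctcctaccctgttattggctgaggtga

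Mcm5 had 2 overlapping matches, the first beginning 153 bases before the start, and Mcm6 had 3, at 110, 106 and 47 bases before it. Cdc6 had 1 match at 138 bases and Gins3 1 at 41 bases. Windows of 300 bases, from 250 before to 50 after the start, were found by gene number for 56 of the 66 genes. They gave 63 windows, since some genes have several starts. The E2F letters were present in 7 of 16 windows of replication genes (43.8%) and in 2 of 30 windows of cyclins, kinases and inhibitors (6.67%). Over all 32851 windows in the table the share was 2.26%. A second set of letters, TTTGAA and its reverse complement TTCAAA (the CHR element of late cell cycle genes), occurred in 19.0% of the member windows and in 17.9% of all windows. Such matches describe the sequence and do not show binding.

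The deposited values are log ratios, read as log2 of mutant over pool. The base was inferred from the values themselves, on most arrays but not all, as given with the processing. The direction is the likely one from the design text and is not stated. If the pool is the numerator, each higher value here is a lower one. Array medians lay from -0.023 to 0.086, and 20046 to 20639 probes had a value on an array. Thymus and brain stand in the series title but spleen and thymus in the sample labels, which were followed here, and since ratios hold no levels, marker genes could not check the tissue. The mean of a mouse's 2 arrays was 1 replicate, with n = 4 mice for spleen. Thymus had n = 3, because mouse 2's pair of thymus arrays held nearly mirrored values (r = -0.922 across probes). The 2 arrays of a mouse also ran against each other in the thymus pairs that were kept (r = -0.440, -0.358 and -0.249 for mice 1, 3 and 4), while the spleen pairs were at 0.052, 0.325, 0.082 and 0.424. Called means a limma adjusted p below 0.05 over all probes tested. Emp3 itself was not called in spleen: its probes stood at 0.20 ± 0.25 and 0.27 ± 0.38 (SD, n = 4; limma adjusted p = 0.204 and 0.214), and which part of the transcript they cover is unknown. In thymus the same probes stood at -0.04 ± 0.10 and 0.05 ± 0.05 (SD, n = 3, limma adjusted p = 0.886 and 0.866). In whole tissue, fewer cells of a type and less RNA per cell cannot be told apart. Probes annotated to 1 gene often differed, as shown further on, so each gene name stands for the probe given beside it.

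In spleen, 28 of the 92 member probes tested were called, 14 higher and 14 lower in the mutants, for 25 genes of 64. The cell cycle genes did not move in 1 direction. All 28 had the same sign in all 4 mice, with sizes from 0.22 to 0.75 (median 0.47, against 0.42 over all called spleen probes). A mean passes more easily where all mice have 1 sign, so the shared sign is a description of the calls. Over all probes 25.3% were called, 13.4% higher and 11.9% lower, against 30.4% of the members. The largest called increase was at a cyclin G1 probe and the largest called decrease at the Mcm5 probe.

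**Figure D1:**
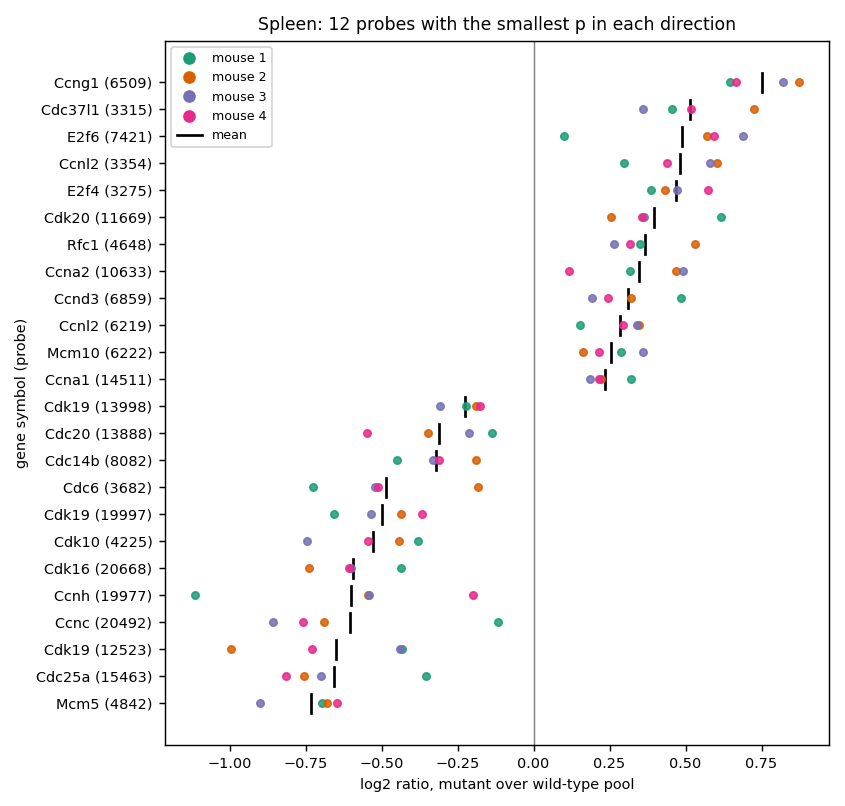
Spleen log2 ratios of mutant over wild-type pool for the 12 member probes with the smallest p in each direction; each point is 1 mouse (mean of its 2 arrays) and each black bar the mean of 4 mice. Ccng1 (probe 6509) at the top has all mice between 0.65 and 0.87, and Mcm5 at the bottom has all between -0.90 and -0.65. No probe shown has mice on both sides of 0, which the choice by p favours.

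Among the replication genes, 5 of 21 tested probes were called in spleen (23.8%, against 25.3% of all probes), 3 higher and 2 lower. Mcm5, a subunit of the replicative helicase ring, stood at -0.70, -0.68, -0.90 and -0.65 in mice 1 to 4. All mice were far below 0, which made Mcm5 1.66-fold lower (mean -0.73 ± 0.11 SD, n = 4; limma adjusted p = 0.00401). The other 5 subunits of the ring were not called. Mcm2 stood at 0.30, 0.11, 0.02 and 0.01. Mcm3 was at 0.09, -0.26, 0.39 and -0.06, with mice on both sides of 0. Mcm4 was at 0.08, 0.27, 0.22 and 0.20, above 0 in every mouse but short of the threshold in limma (mean 0.19 ± 0.08 SD, n = 4; adjusted p = 0.0771). The running median of the probe IDs around Mcm4 was 0.20, and with it removed Mcm4 was at -0.01. Mcm6 had 3 measured mice, at 0.01, 0.76 and 0.71 in mice 1, 3 and 4 (mean 0.49 ± 0.42 SD; limma adjusted p = 0.0951). Over its arrays with a value, Mcm6 was at 1.68 with the mutant in Cy5 and -0.42 with the mutant in Cy3. Both dyes thus did not show the same sign. Mcm7 was below 0 in every mouse, at -0.34, -0.07, -0.29 and -0.08, and was not called (mean -0.20 ± 0.14 SD, n = 4; limma adjusted p = 0.109). With the running median of its neighbouring probe IDs removed it was at -0.26 and called lower. The subunits of the ring, which work in equal numbers, thus had spleen means from -0.73 to 0.49. The upper end was Mcm6, with its opposed dyes.

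Mcm10, which helps the helicase to start, was represented by 3 probes, and 1 of them was called. Probe 6222 stood at 0.29, 0.16, 0.36 and 0.22, higher in every mouse (mean 0.26 ± 0.09 SD, n = 4; limma adjusted p = 0.0349). Probes 3140 and 3713 had means of -0.04 and -0.08 and were not called. The running median over the probe IDs around probe 6222 was itself 0.21 in spleen, and with it removed the probe was at 0.05 and not called.

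The loading factor Cdc6 was lower at probe 3682, at -0.73, -0.18, -0.52 and -0.51 (mean -0.49 ± 0.22 SD, n = 4; 1.40-fold; limma adjusted p = 0.0176). Its second probe, 15636, had a mean of -0.24 with mice on both sides of 0. Cdc45, the helicase partner of GINS, was higher in all mice, at 0.12, 0.30, 0.49 and 0.29 (mean 0.30 ± 0.15 SD, n = 4; limma adjusted p = 0.0379). Both GINS subunits lay above 0 on average and neither was called. Gins3 stood at 0.46, 0.69, 2.44 and 0.63, the highest mean of any member (1.05 ± 0.93 SD, n = 4; limma adjusted p = 0.0644), and mouse 3 was far above the others. Gins4 stood at 1.15, -0.02, 0.49 and 0.25. The 3 probes of the origin recognition complex (Orc3, Orc5 and Orc6) had means from 0.03 to 0.20 and none was called. With the running median of its neighbouring IDs removed, Orc6 was at 0.27 and called higher.

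At the fork itself, the largest subunit of the clamp loader, Rfc1, was higher, at 0.35, 0.53, 0.27 and 0.32 (mean 0.37 ± 0.12 SD, n = 4; 1.29-fold; limma adjusted p = 0.0152). Every mouse lay above 0. Rfc4, a small subunit, had a mean of -0.08 and was not called. The running median around it was 0.26, and with it removed Rfc4 was at -0.34 and called lower. Pcna, the clamp and a common marker of dividing cells, was near 0 at both of its probes: probe 4850 stood at -0.02, 0.00, 0.14 and 0.20, and probe 10308 at -0.01, -0.16, -0.01 and -0.05. Top2a, the topoisomerase that untangles replicated chromosomes and another proliferation marker, stood at -0.04, 0.00, -0.19 and -0.02. None of the Pcna and Top2a probes was called (limma adjusted p = 0.419, 0.518 and 0.528).

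**Figure D2:**
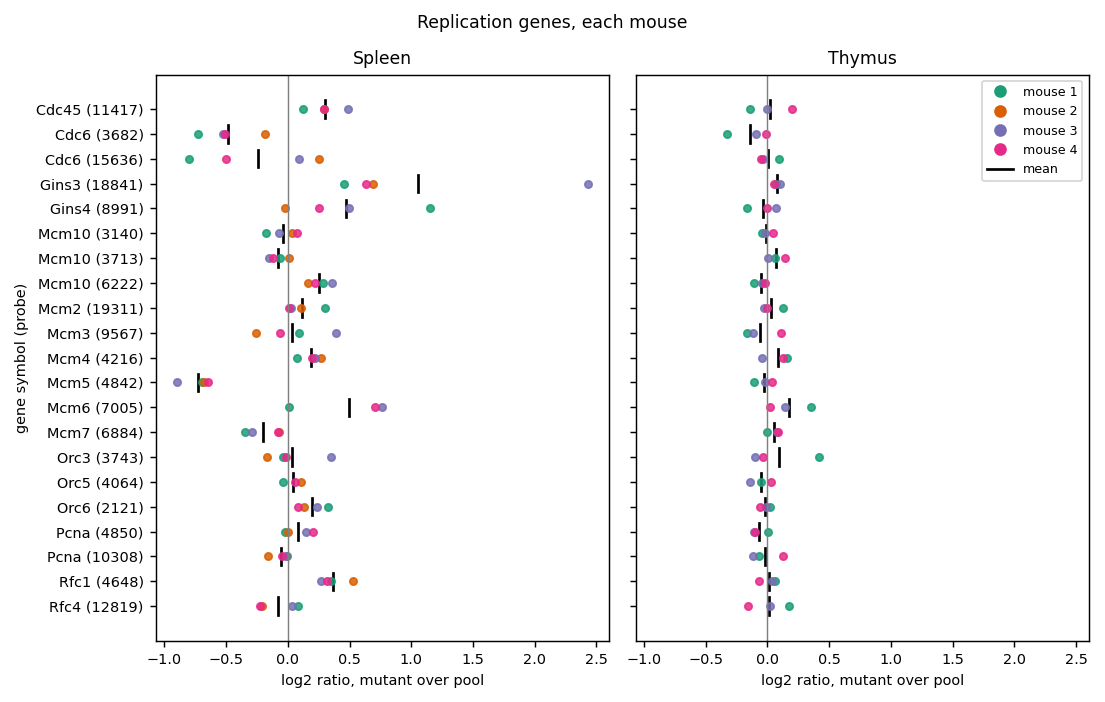
Log2 ratios of mutant over pool for the 21 probes of replication genes in spleen (left, 4 mice) and thymus (right, 3 mice); points are mice and black bars means. Spleen points spread from -0.90 (Mcm5) to 2.44 (Gins3, mouse 3), while the thymus means stay between -0.15 and 0.17.

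Cyclins were called at 9 of 21 tested probes in spleen (42.9%, against 25.3% of all probes), 6 higher and 3 lower. The cyclin with the largest increase was Ccng1, a p53 target with a role in growth arrest rather than in driving the cycle. Its probe 6509 stood at 0.65, 0.87, 0.82 and 0.67, well above 0 in all mice (mean 0.75 ± 0.11 SD, n = 4; 1.68-fold; limma adjusted p = 0.00401). Its other probes had means of -0.18 (3941) and 0.25 (4211) and were not called. Ccnl2, a cyclin tied to RNA splicing, was called at 2 of 4 probes: probe 3354 stood at 0.30, 0.60, 0.58 and 0.44, and probe 6219 at 0.15, 0.35, 0.34 and 0.30. The remaining Ccnl2 probes had means of 0.14 and 0.24, so all 4 lay above 0.

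Among the D and A cyclins, which act at the start of the cycle and in S phase, 3 probes were called higher and 1 lower. Ccnd3, the D cyclin of many lymphoid cells, was higher at 0.48, 0.32, 0.19 and 0.24 (mean 0.31 ± 0.13 SD, n = 4; limma adjusted p = 0.0275). Its mean was 0.74 on the arrays with the mutant in Cy5 and -0.12 on those with the mutant in Cy3, so both dyes did not show the same sign. Ccnd2 was lower at probe 16918, at -0.13, -0.26, -0.31 and -0.21, and its second probe ran from -0.61 to 1.63. Ccna2 was higher at probe 10633, at 0.32, 0.47, 0.49 and 0.12, and was at 0.08 on average at probe 3568. Ccna1, mainly known from the germ line, was higher at 0.32, 0.22, 0.19 and 0.22.

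The remaining lower cyclins belong to the CDK-activating kinase and to the Mediator complex. Ccnh, the cyclin of CDK7, stood at -1.11, -0.54, -0.54 and -0.20 (mean -0.60 ± 0.38 SD, n = 4; limma adjusted p = 0.0307). Ccnc, the cyclin of CDK8 and CDK19 in Mediator, stood at -0.12, -0.69, -0.86 and -0.76 (mean -0.61 ± 0.33 SD, n = 4; limma adjusted p = 0.0218). The running median around Ccnc was -0.60 in spleen, and with it removed Ccnc was at -0.005 and not called. The mitotic cyclin Ccnb2 had means of -0.08 and -0.03, the G1/S cyclin Ccne1 one of 0.14, and neither was called; nor were Ccnf, Ccni and the tested Ccnk probe.

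Kinases were called at 8 of 21 tested probes (38.1%, against 25.3% of all probes), 2 higher and 6 lower. Cdk4, the partner of the D cyclins, was higher at 0.22, 0.45, 0.97 and 0.33 (mean 0.49 ± 0.33 SD, n = 4; limma adjusted p = 0.0394). Cdk20 was higher at probe 11669, at 0.62, 0.26, 0.36 and 0.36, and the running median around it was 0.31, which left 0.09, not called. The Mediator kinase Cdk19 was lower at 3 of 4 probes. Probe 12523 stood at -0.43, -0.996, -0.44 and -0.73, probe 19997 at -0.66, -0.44, -0.53 and -0.37, and probe 13998 at -0.22, -0.19, -0.31 and -0.18. The fourth, 16681, had a mean of 0.16 with mice on both sides of 0.

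Cdk10 was lower at -0.38, -0.44, -0.74 and -0.54 (mean -0.53 ± 0.16 SD, n = 4; 1.44-fold; limma adjusted p = 0.00761). It was at -0.53 with either dye. Cdk16, a kinase of the PCTAIRE family, stood at -0.44, -0.74, -0.60 and -0.61 (mean -0.60 ± 0.12 SD, n = 4; limma adjusted p = 0.00441). The running median around it was -0.52, and with it removed the probe was at -0.07 and not called. Cdk18, of the same family, was lower at -0.34, -0.32, -0.07 and -0.30. Neither Cdk1 and Cdk2, the kinases of mitosis and S phase, nor Cdk6, Cdk7, Cdk9, Cdk12 and Cdk5 were called; Cdk1 had a mean of 0.15, and the Cdk2 probes were at -0.08 and -0.54. The probes of Cdk14, one of Ccnk and that of Cdc37 had too few measured mice for a spleen test.

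No CDK inhibitor probe was called in spleen (0 of 6 in limma, against 25.3% of all probes, and 0 with an unadjusted p below 0.05). Cdkn1a, which encodes p21, stood at 0.07, 0.03, -0.12 and 0.07. Cdkn1b, for p27, had means of 0.02 and -0.10 at its probes, Cdkn1c one of 0.14, Cdkn2c one of -0.12 and Cdkn2d one of -0.07. The inhibitor probes were thus the role with the narrowest range of means among those with 5 or more tested probes.

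E2F factors were called at 2 of 6 tested probes (33.3%, against 25.3% of all probes), both higher, with a median of 0.21 over the 6. E2f4, a repressor E2F of resting cells, stood at 0.39, 0.43, 0.47 and 0.57, a tight set well above 0 (mean 0.47 ± 0.08 SD, n = 4; 1.38-fold; limma adjusted p = 0.00579). E2f6, another repressor, was higher at probe 7421, at 0.10, 0.57, 0.69 and 0.59, while its probe 7898 had a mean of -0.22 and was not called. With the running median of the neighbouring IDs removed, probe 7421 was at 0.40 and not called. Probe 7898 was then at -0.36 and called lower. The activators E2f1 and E2f2 had means of 0.18 to 0.23 and were not called. Of the tested probes of genes with E2F letters in their promoter window, 0 of 15 were higher and 3 lower, with a median of 0.03. Of those without, 12 of 61 were higher and 6 lower, with a median of 0.04. The 3 lower ones with E2F letters were Mcm5, Cdc6 and Cdc25a. Over all probes 13.4% were called higher and 11.9% lower. The 10 member genes without a window are in neither group, and no test was made between the groups.

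Cdc25a, the phosphatase that activates CDK2, was lower at probe 15463, at -0.35, -0.76, -0.70 and -0.81 (mean -0.66 ± 0.21 SD, n = 4; 1.58-fold; limma adjusted p = 0.00628). Its probe 7690 was at 0.03 on average, and Cdc25b and Cdc25c were not called. Of 7 probes for genes of mitotic exit and the anaphase-promoting complex, 2 were called, both lower (28.6%, against 25.3% of all probes). Cdc20, an activator of the anaphase-promoting complex, stood at -0.14, -0.35, -0.21 and -0.55. Cdc14b, a phosphatase, stood at -0.45, -0.19, -0.33 and -0.31 at probe 8082, and its other 3 probes, with means of 0.06, 0.09 and -0.43, were not called. Cdc16, a subunit of that complex, had means of 0.22 and -0.17 at its probes and was not called. Cdc37l1, a relative of the kinase chaperone CDC37 that shares only the name with the cycle genes, was higher at 0.46, 0.72, 0.36 and 0.52 (limma adjusted p = 0.00777).

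**Figure D3:**
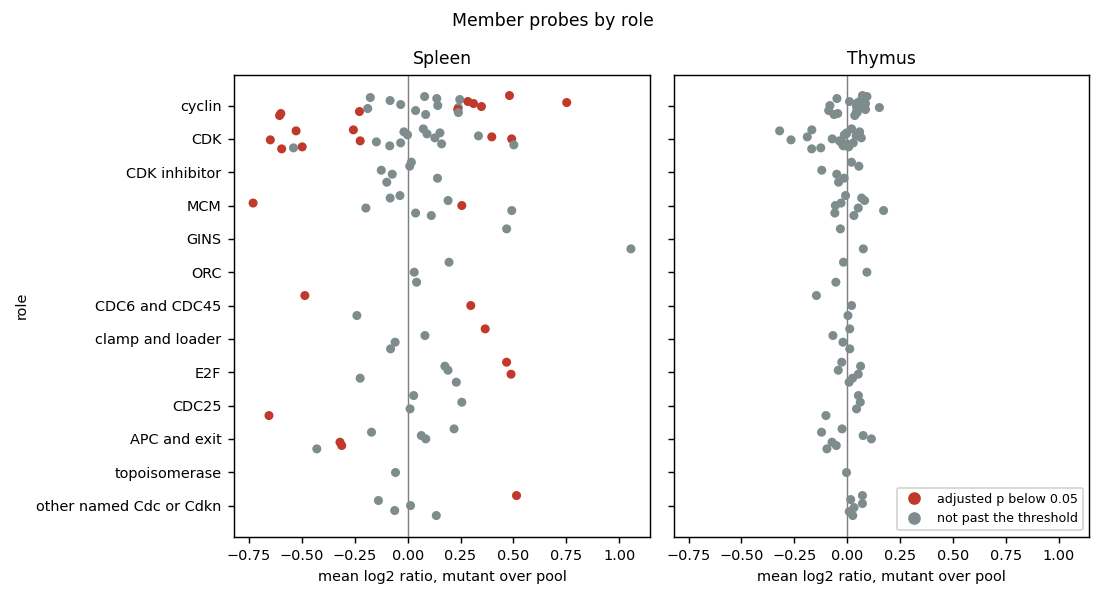
Mean log2 ratio of mutant over pool for each member probe, by role, in spleen (left) and thymus (right); red points passed an adjusted p of 0.05 in limma and grey points did not. In spleen red points lie on both sides of 0, 14 each, and in thymus no point is red.

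Replication genes as a class were set against cyclins, kinases and inhibitors by the median over their probes in each mouse. In spleen the replication median was 0.01, 0.02, 0.18 and 0.06 in mice 1 to 4, and the other was -0.02, 0.04, 0.00 and -0.03. The means of these medians were 0.07 ± 0.08 and -0.002 ± 0.030 (SD, n = 4), against 0.03 ± 0.01 for all probes with a symbol. The mice of both classes overlapped: mouse 2 had the higher value in the cyclins, kinases and inhibitors. By calls, 23.8% of the replication probes and 35.4% of those of cyclins, kinases and inhibitors passed, against 25.3% of all probes. In thymus the medians were 0.0005 ± 0.022 and 0.013 ± 0.017 (SD, n = 3). No test was made between the classes.

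The value attached to a gene depended on its probe. In spleen 19 member genes had more than 1 tested probe, and in 7 of them all probes had 1 sign. At least 1 probe was called in 11 of the 19 and more than 1 in 2 (Ccnl2 and Cdk19). No gene had every probe called, and none had probes called in opposite directions. Ccng1 spanned the widest range, 0.93 on the log2 scale, followed by Cdk19 with 0.81, E2f6 with 0.71 and Cdc25a with 0.68. Which probe, if any, reports the named transcript was not tested.

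**Figure D4:**
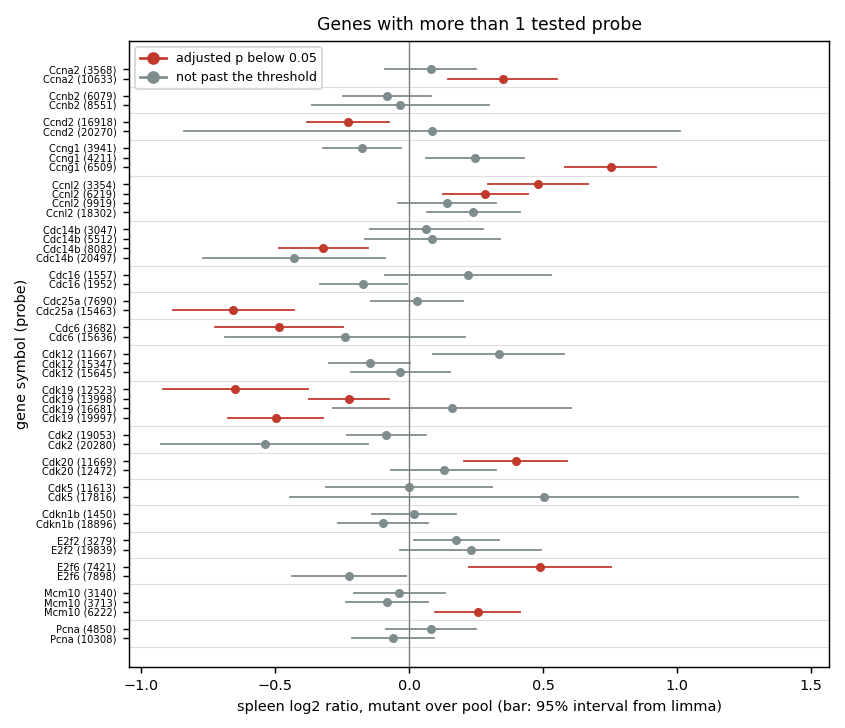
Spleen log2 ratio of every tested probe of the 19 member genes with more than 1, with 95% intervals from limma; red probes passed an adjusted p of 0.05 and grey ones did not. Probes of Ccnl2 lie on 1 side of 0, and those of Ccng1, Cdk19 and E2f6 lie on both sides.

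The 2 dyes were compared for the spleen calls. Of the 28 called probes, 27 (96.4%) had the same sign in the mean of the Cy5 arrays and that of the Cy3 arrays, the exception being Ccnd3, against 30 of 64 probes not called. Among all called spleen probes the share was 96.6%. A mean over both dyes passes more easily where both have 1 sign, so this is a description of the calls. It holds for ratios taken as already turned to 1 orientation. If the Cy3 arrays are turned instead, 0 of the 92 members were called in spleen (0.00497% of all probes) and 0 for the difference between tissues (0%).

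**Figure D5:**
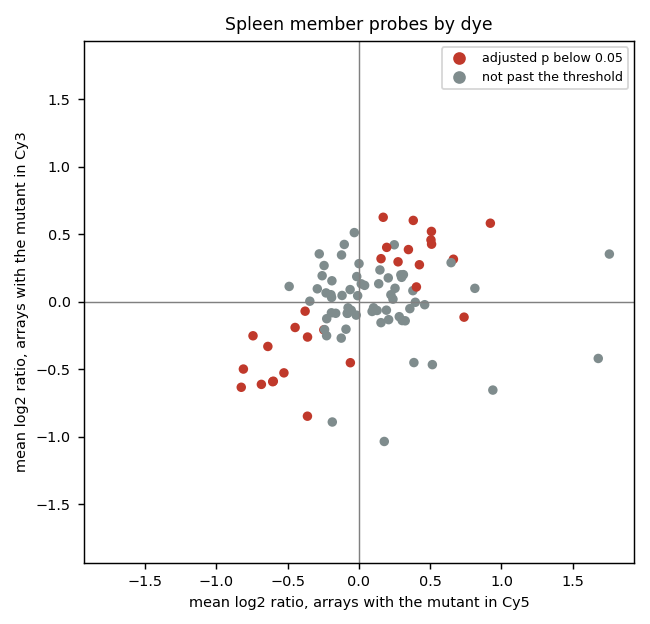
Spleen log2 ratio of each tested member probe on the arrays with the mutant in Cy5 (horizontal) and in Cy3 (vertical); red probes passed an adjusted p of 0.05 in limma, grey ones did not. The red points lie where both dyes have 1 sign, except Ccnd3, at 0.74 and -0.12.

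The thymus showed no called change. None of the 93 tested member probes passed in limma (0 of 93), and none of all 20130 probes did (0%); without adjustment 5 members and 725 of all probes had p below 0.05. The lowest adjusted p of a member was 0.866. Ratios were small, with 80 of the 93 means within 0.1 of 0, against 30 of 92 in spleen. These means join 2 dyes that often disagreed: both dye means had 1 sign in 34 of the 93 thymus probes, against 57 of 92 in spleen. The median size of a member's ratio in thymus was 0.099 on the Cy5 arrays, 0.094 on the Cy3 arrays and 0.052 over both; in spleen it was 0.25, 0.20 and 0.19. Averaging opposed arrays draws a mean towards 0, so the thymus result and the contrast with spleen hold for this average only. Cdk10 had the largest thymus mean in size, at -0.25, -0.34 and -0.36 in mice 1, 3 and 4 (mean -0.32 ± 0.06 SD, n = 3). Cdk19 at probe 12523 stood at -0.20, -0.42 and -0.17, and Cdk18 at -0.29, -0.18 and -0.03. All 3 were below 0 in each thymus and were called lower in spleen. On the other side, Ccni stood at 0.27, 0.15 and 0.04, Cdc14b (probe 5512) at 0.12, 0.08 and 0.14, and Mcm6 at 0.35, 0.14 and 0.02. Mcm5, the most reduced replication probe of the spleen, was at -0.11, -0.02 and 0.04 in thymus, and Ccng1 (6509) at 0.03, 0.14 and -0.02. In the thymus pair left out, 79 of the 95 member means of mouse 2 lay from 0.030 to 0.034.

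The difference between the tissues was tested directly, as spleen minus thymus. Of 92 members 14 were called, 8 higher and 6 lower in spleen (15.2%). Over all probes 17.4% were called, 8.03% higher and 9.35% lower, so the members' share was not above the background. Of the 14, 13 were also called in spleen, the exception being Ccng1 probe 3941. The clearest differences were -0.70 ± 0.09 (SE) for Mcm5, 0.70 ± 0.09 for Ccng1 (6509), 0.49 ± 0.07 for E2f4 and -0.51 ± 0.08 for Cdk19 (19997), with limma adjusted p of 0.00287, 0.00287, 0.00436 and 0.00554. In each of these 4 no spleen mouse overlapped a thymus mouse. Both tissues came from the same animals. With the mouse as a block, which uses mice 1, 3 and 4 only, 3 members were called instead of 14: Mcm5, Ccng1 (6509) and Ccnc (3.1% of all probes). Without mouse 4 none was called in limma (0.0103% of all probes), and the counts without mice 1, 2 and 3 were 14, 4 and 4 (19.7%, 9.73% and 5.9% of all probes). Adding the variance that a pool of 4 would have left 3 members (2.98% of all probes).

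The spleen count also depended on how the spread was treated. When the variance expected of a pool of 4 was added, 9 members were called (8.39% of all probes): Ccng1 (6509), Mcm5, Cdk16, E2f4, Cdc25a (15463), Cdk19 (19997), Cdk10, Cdc37l1 and Ccnl2 (3354). Tested against a 1.2-fold change, 3 were called (4.41%): Ccng1 (6509), Mcm5 and Cdk16. After removal of the running median along the IDs, 19 were called (19.7% of all probes), 6 higher and 13 lower, against 14 and 14 before. Of the 19, 15 were among the 28. Newly called were Mcm7 (-0.26), Rfc4 (-0.34) and E2f6 at probe 7898 (-0.36), lower, and Orc6 (0.27), higher. Removal left Ccnl2 (6219) at 0.07 and Ccna1 at 0.06, not called, and Cdc37l1 at 0.29 and Ccnd2 (16918) at -0.38, still called. Ccng1 (6509) went from 0.75 to 0.50 and was still called. Also no longer called were Cdk4 (0.46), E2f6 at probe 7421 (0.40), Ccnd3 (0.25), Ccna2 at probe 10633 (0.24) and Cdc45 (0.23). The same held for Cdc20 (-0.28) and Cdk18 (-0.20). Leaving out mouse 2 or mouse 4 gave 13 and 12 calls (12.1% and 12.2%).

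Other genes of the pathway, from lists of genes with known roles, were read beside the members in spleen. Among 31 tested probes of other replication genes, such as polymerase subunits, 8 were higher and 1 lower (29.0%, against 25.3% of all probes), with a median of 0.04. Pold2, a subunit of polymerase delta, stood at 0.43, 0.59, 0.37 and 0.47, and Fen1, the flap nuclease, at 0.40, 0.58, 0.32 and 0.28. The lower one was Rrm2, a subunit of ribonucleotide reductase, at -0.47, -0.64, -0.82 and -0.80. Of 51 mitosis probes 8 were higher and 6 lower (27.5%, median -0.004), with Incenp at a mean of 0.65 and Mad2l1 at -1.09. Of 39 checkpoint and Rb pathway probes 2 were higher and 7 lower (23.1%, median 0.01). Tfdp2, the DNA-binding partner of E2F, was higher at 1 probe (0.50) and lower at another (-0.75). The list values here and the marker values below are given without removal of the running median along the IDs.

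Marker genes of the main spleen cells were read beside these values. In spleen 0 of 4 tested B cell probes were called in limma (1 with an unadjusted p below 0.05). Of 8 T cell probes 1 was higher and 1 lower (25%), and of 8 macrophage probes 0 were higher and 3 lower (37.5%). Of 15 erythroid probes, for 6 genes, 1 was higher and 4 lower (33.3%). Over all probes 25.3% were called. The erythroid median was -0.12, and Hba-a1, for alpha globin, stood at -0.52 ± 0.03 at probe 15435 (SD, n = 4). Sptb, of the same list, was called higher at probe 5295 (0.38) and lower at probe 15496 (-0.64). The single tested probe of cortical thymocyte genes was not called. In thymus none of these lists had a called probe. The part of cell composition in the spleen values of the cell cycle genes was not tested.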

How the data were processed

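RNA from spleen and thymus of mutant mice was labelled with Cy3 or Cy5 and hybridised against the pool in the other dye, per the labels' protocols. Channel labels and design text give a pool of 4, the labelling protocol one of 6. The authors deposited 1 column of ratios an array, made from both dye channels per the labels and read here as log2 values; the sources used here name no image software, background correction or normalization. The base came from the values: of the 64 next-commonest values on the 16 arrays, 48 lay within rounding of the commonest one plus log2 of a ratio of whole numbers up to 12, against 18 with log10 and 1 with the natural log. The log2 matches were 0 on both thymus arrays of mouse 4, and 2 (Cy5) and 1 (Cy3) on those of mouse 3. The Cy3 spleen array of mouse 2 had 1. On each other array all values examined matched, and the same base was assumed for every array. Values of 10 or more in size (25 to 137 an array, 1 constant each) were set to missing. The constant's sign followed the mutant dye on every array, so ratios were taken as already turned. The values do not settle this: read that way, r between a mouse's arrays ran from -0.922 to -0.249 in thymus and from 0.052 to 0.424 in spleen.

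A mouse counted where both arrays had a value, and a probe was tested with at least 3 mice. The thymus arrays of mouse 2 were left out: 83.5% of their sums lay within 0.01 of the median. Limma 3.58.1 in R 4.3.3 tested each tissue alone against 0, and the difference in a joint fit with 1 weight per tissue (0.63 spleen, 1.85 thymus), with Benjamini-Hochberg adjustment at 0.05 over all probes. The fits were tested on simulated data. The same animals gave both tissues, so their numbers pair the samples; deviations of the same mouse correlated at -0.052, -0.012 and -0.070 (mice 1, 3 and 4). P-values measure the spread between mice; the files used hold no intensities, so the depth is unknown.

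Genes and lists were chosen with earlier results of these data known. Values in every mouse are given for the 12 member probes with the smallest p in each direction in spleen, 3 in thymus and 4 for the difference, for Pcna, Top2a and the MCM ring, and for at most 2 genes a list; others with mouse values (Gins3, Gins4, Cdc45, Cdk4, Cdk18, Ccnd2, Cdkn1a) were named after their values were seen. Symbols are those of the platform annotation, and promoters those of RefSeq.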

Additional observations from a re-analysis of the deposited data

Results flagged for a closer look

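The difference between spleen and thymus passed an adjusted p of 0.05 in limma at 14 member probes, each the test of the difference itself. On the log2 scale, spleen minus thymus was positive for Ccng1 at probe 6509 (0.70), Cdk4 (0.56), E2f4 (0.49), Cdc37l1 (0.44), E2f6 at probe 7421 (0.44), Ccnl2 at probe 3354 (0.41), Rfc1 (0.35) and Mcm10 at probe 6222 (0.31). It was negative for Mcm5 (-0.70), Cdc25a at probe 15463 (-0.55), Ccnh (-0.55), Cdk19 at probe 19997 (-0.51), Ccnd2 at probe 16918 (-0.27) and Ccng1 at probe 3941 (-0.25). The probes 6509 and 3941 carry the same symbol, Ccng1, and differed between the tissues in opposite directions. With the mouse as a block, Mcm5 and Ccng1 (6509) were the members of the 14 that still passed.

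In spleen, 1 mouse stood apart from the other 3 at 6 of the 89 member probes with 4 mice, where chance alone flags about 1 in 20 groups. Mouse 3 was the one apart at Gins3 (2.44), Cdc16 at probe 1557 (0.701), Ccne1 (0.641) and Cdk18 (-0.074), mouse 2 at Cdc25b (-0.153) and mouse 4 at Cdc73 (0.046). Cdk18 was the only one of the 6 that was called.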

How the results depend on the processing

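The spleen count of 28 members stayed within 1.5 times with array medians set to 0, placeholders kept, 1 array a mouse, robust variances, gene means, a joint fit or the running median removed. It was 0 with the Cy3 arrays turned (0.00497% of all probes), 9 with the variance of a pool added (8.39%) and 3 in the 1.2-fold test (4.41%). Each of these was out of 92 tested probes, as was the main count (25.3% of all probes). Without 1 mouse the count ran from 12 of 89 (mouse 4 out, 12.2% of all probes) to 24 of 89 (mouse 1 out). With mouse 1 out the share of all probes stayed close to 25.3%. The thymus count was 0 in every setting run. The count for the difference was 14 of 92 (17.4% of all probes). It was 0 with the Cy3 arrays turned (0%), 3 with the pool's variance (2.98%) and 3 with the replicate block (3.1%). It was 2 in the 1.2-fold test and 9 with 1 spread for both tissues, and the share of all probes was lower in both. Gene means gave 7 of 64 genes, with a share of all genes close to 17.4%. Without 1 mouse the count ran from 0 (mouse 4 out, 0.0103% of all probes) to 14 (mouse 1 out, 19.7%). Thymus then keeps 2 mice, assumed to vary like the rest, unless mouse 2 is dropped. The thymus median of replication genes, 0.0005, was 0.025 with the Cy3 arrays turned and -0.024 with the running median removed. Turning the Cy3 arrays also gave the other sign, with no call, in spleen for Cdk18 (0.20), Cdc37l1 (-0.0059), Cdk10 (0.0005), Rfc1 (-0.019), Ccnl2 at probe 6219 (-0.010), Cdk20 at probe 11669 (-0.23), Ccna1 (-0.082) and Ccnc (0.24), and for the difference at Cdc37l1 (-0.058) and Ccnl2 at probe 3354 (-0.069). No other setting run gave a called value of a named probe the other sign. The causes of these changes were not tested. By construction, gene means leave fewer tests, and the pool's variance and the fold threshold raise the bar. The number of mice and the single pool limit precision.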
